A study of Mus musculus with 232 samples.

Results

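Oct4, which is encoded by Pou5f1, Sox2, Sall4 and Sall1 are transcription factors of the pluripotency core of mouse embryonic stem cells (ESCs). They were followed by name and gene identifier as 4 of the 42493 genes in the files, with the expected count (the number of reads that RSEM assigned to a gene) summed over the sequencing runs of a cell. Genes were kept at a mean of 5 counts or more per cell (11219 genes), and a stricter set held those at 50 or more (5396 genes). All 4 were in both sets.

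Single ESCs were captured and sequenced 24 h after mock transfection or transfection of a miRNA mimic. Dgcr8-/- ESCs lack a subunit of the Microprocessor, which cuts miRNA precursors out of primary transcripts, so that a mimic acts against a background nearly free of canonical miRNAs. The groups were Dgcr8-/- cells titled Mock, Dgcr8-/- plus let-7, Dgcr8-/- plus miR-294, and wild-type (WT) cells titled V6.5, all grown in DMEM with 15% FBS, LIF and the 2 inhibitors PD0325901 and CHIR99021 (2i). WT cells were described as mock transfected only in the general design of the study. Titles named the let-7 mimic LET_7I, the series design named let-7b and the methods let-7c.

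The 232 runs carried 182 titles, but not all titles behaved as separate cells. In 4 pairs of titles with consecutive numbers, 3 let-7 and 1 miR-294, the counts were as alike (Pearson's r on log2 values 0.980 to 0.991) as those of the 2 runs of 1 cell (0.969 to 0.990), against at most 0.704 for any other 2 titles. Each such pair was summed and counted as 1 cell. A let-7 title and a WT title whose 2 runs differed as much as different cells (r of 0.478 and 0.498) were left out. This left 176 cells, of which 60 were mock Dgcr8-/-, 15 were WT, 44 were let-7-transfected and 57 were miR-294-transfected (3 of them titled MIR_294). With all 182 titles the ratios of the 4 genes between conditions kept their side of 2-fold, but Sall4, mock over WT, stood at -0.06 in place of 0.03, Sall1, let-7 over WT, at -0.07 in place of -0.19, and Sox2, let-7 over mock, at -0.95 in place of -0.86.

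Cells held between 513521 and 3979274 counts (median 1516941), and between 6119 and 10877 genes were counted in a cell. Every condition had a chip (C1 circuit) of its own, so chip and condition cannot be told apart, and the labels name no culture. A condition was therefore 1 sample, cells were not taken as its replicates, and no test between conditions was possible. SDs describe the spread between cells, and confidence intervals cover counting error only. The libraries had no molecular identifiers and no spike-in was used here, so a level is relative to the other RNA of a cell. Dgcr8 itself was counted in 54 of 60 mock, 42 of 44 let-7, 55 of 57 miR-294 and 15 of 15 WT cells. Its mean normalized count was 51.9 ± 118 (SD) in mock, 42.5 ± 65.7 in let-7, 68.3 ± 89.5 in miR-294 and 126 ± 169 in WT cells. The counts span the whole gene, and reads outside the deleted part do not check the genotype.

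Oct4, a POU factor, and Sox2, an HMG-box factor, bind DNA side by side at composite elements near genes such as Fgf4, Utf1 and Nanog and hold ESCs in the pluripotent state. Loss of Oct4 is known to turn ESCs towards trophectoderm. Sall4 and Sall1 are zinc-finger proteins of the Spalt family that recruit the NuRD deacetylase complex and interact with other core factors such as Nanog. MicroRNAs of the let-7 family accumulate as ESCs differentiate, whereas miR-294 belongs to the family that dominates the miRNAs of ESCs. A miRNA finds its targets mainly through its seed, bases 2 to 8 from its 5′ end.

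The mature mouse miRNAs are shown because the name of the let-7 mimic differed between sources. Sequences are from RefSeq (GRCm38.p6), 5′ to 3′, with the seed in capitals.
mmu-let-7b-5p: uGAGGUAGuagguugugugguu
mmu-let-7c-5p: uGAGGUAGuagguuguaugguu
mmu-let-7i-5p: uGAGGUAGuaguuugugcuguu
mmu-miR-294-3p: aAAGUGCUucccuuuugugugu
The 3 let-7 members share the seed GAGGUAG. With positions counted from 1 at the 5′ end, let-7b differed from let-7c by A17G, and let-7i differed from let-7c by G12U, A17G, U18C and G19U, all outside the seed. The same seed match in a transcript therefore applies to each of them. The seed of miR-294, AAGUGCU, is a different sequence.

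The annotated 3′ untranslated region of the principal transcript of each gene was searched on the transcript strand for a match to the seed (CTACCTC for let-7, AGCACTT for miR-294) or to bases 2 to 7 followed by A (TACCTCA for let-7, GCACTTA for miR-294). The matches of a miRNA overlap where both are present. Sall4 held the single let-7 match among the 4 genes, at base 1082 after the stop codon in a region of 1697 bases. The 24 bases that end with this match lie at chr2:168748940-168748963 (GRCm38, minus strand), with the match in capitals, because Sall4 is the gene with the lowest ratio after let-7 below.
Sall4 site: gagggctttaatttatCTACCTCA
The match covers bases 2 to 8 of let-7 and is followed by A. Neither pattern for let-7 was found in the regions of Pou5f1 (221 bases), Sox2 (1086 bases) or Sall1 (1143 bases), and neither pattern for miR-294 was found in any of the 4. Of 20657 coding genes, 13.7% held a let-7 match and 16.5% a miR-294 match in the same search. A match is a stretch of letters and was not tested as a site.

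In GRCm38, Pou5f1 (ENSMUSG00000024406) lies at chr17:35506018-35510772 on the plus strand with 5 exons, and Sox2 (ENSMUSG00000074637) at chr3:34650405-34652461 on the plus strand with 1 exon. Sall4 (ENSMUSG00000027547) lies at chr2:168748332-168767943 on the minus strand with 4 exons, and Sall1 (ENSMUSG00000031665) at chr8:89027235-89044162 on the minus strand with 4 exons. The libraries do not mark strand. Reads of Sox2 and of Sox2ot, within which it lies, cannot be told apart where they overlap, nor can those of Pou5f1 and Gm19553 or of Sall4 and Gm14261, which overlap on the opposite strand. Of the 31-base stretches of the Pou5f1 transcript, 4.79% recur in transcripts of other genes (Gm5712, Gm21054 and Gm6539). The share was 0.888% for Sox2, 0.325% for Sall1 and 0% for Sall4. These shares do not measure how uncertain a count is. Of the runs with a count, the expected count was not a whole number in 11.7% for Pou5f1 and 12.4% for Sox2. For Sall4 this was so in 41.2% and for Sall1 in 51.2%.

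Sall4 was lower in let-7-transfected cells by a wide margin and stood at a like level in the other 3 conditions. Its normalized count, the count divided by the size factor of the cell, ranged over mock Dgcr8-/- cells from 187 through a median of 1034 to 2852. In WT cells it ranged from 446 through 1119 to 2347. In miR-294-transfected cells it ranged from 295 through 1089 to 2467. In let-7-transfected cells it ranged from 0 through 161 to 1209. Of the 44 let-7-transfected cells, 28 lay below the lowest mock cell and 43 lay below the first quartile of mock cells (790), while 1 cell, at 1209, lay above the mock median. The other 3 conditions covered each other's range almost entirely, with 3 of 60 mock cells above the highest and 4 below the lowest WT cell.

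The mean level of Sall4 was 1114 ± 527 (SD) in mock, 1095 ± 485 in WT, 1206 ± 491 in miR-294 and 202 ± 230 in let-7 cells. The log2 ratio of the means, let-7 over mock, was -2.46, a 5.51-fold lower level. Summed over the cells of a condition, Sall4 took 138 CPM (counts scaled to 1000000 counts of a condition) in let-7 cells (95% exact Poisson interval 135 to 141) and 727 (722 to 732) in mock cells. Sall4 had no count in 4 of 44 let-7 cells (9.09%, 95% exact binomial interval 2.53 to 21.7%) and in 0 of 60 mock cells, where the same interval reaches up to 5.96%. With every cell thinned to 513521 counts, 7 of 44 let-7 cells (15.9%) and again 0 of 60 mock cells were without a Sall4 count. The 4 let-7 cells without a Sall4 count had totals of 1025623 to 3204534 counts, above the 808409 counts of the shallowest let-7 cell. Before deposit, the authors had removed a few let-7 and miR-294 cells in which the listed targets were not lower. Sall4 is on the let-7 list used for that selection, so the remaining cells were in part selected on its level. How far this moved its mean was not tested.

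**Figure D1:**
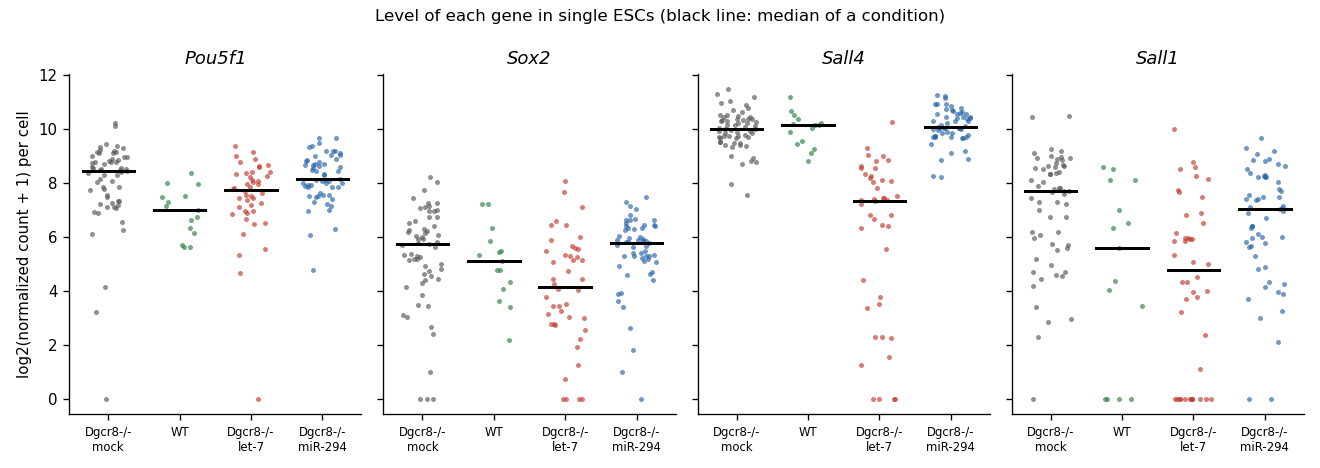
Each point is a cell, the y axis is log2(normalized count + 1) of the named gene, and black lines are medians of the 60 mock, 15 WT, 44 let-7 and 57 miR-294 cells. Sall4 sits between 187 and 2852 in mock cells and reaches down to 0 in let-7 cells. For Pou5f1, Sox2 and Sall1 the let-7 cells stay within the range of mock cells. For Pou5f1, 32 of 60 mock and 26 of 57 miR-294 cells lie above the highest WT cell.

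Sall1, the close relative of Sall4, was also lower in let-7 cells, from a wider spread. Normalized counts ranged over mock cells from 0 through a median of 206 to 1414, and over let-7 cells from 0 through 26.5 to 1013. In miR-294 cells they ranged from 0 through 130 to 817. In WT cells they ranged from 0 through 47.3 to 381. No let-7 cell lay outside the range of mock cells, but 37 of 44 lay below the mock median and 25 of 44 below the first quartile of mock cells (49.9). The means were 257 ± 279 in mock, 113 ± 140 in WT, 99.0 ± 182 in let-7 and 184 ± 186 in miR-294 cells.

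The log2 ratio of Sall1, let-7 over mock, was -1.38 (2.60-fold lower), and it lay between -1.73 and -1.26 when each cell was left out in turn. With medians in place of means it was -2.96. A few cells carried much of the sum: the 3 highest of 44 let-7 cells held 42.1% of it, and the 3 highest of 60 mock cells 22.1%. Sall1 had no count in 12 of 44 let-7 cells (27.3%, 15.0 to 42.8%), 4 of 15 WT cells (26.7%, 7.79 to 55.1%), 2 of 57 miR-294 cells (3.51%, 0.428 to 12.1%) and 1 of 60 mock cells (1.67%, 0.0422 to 8.94%). After thinning these numbers were 14, 4, 2 and 2, so the order of the shares stayed the same. Of the 15 WT cells, 3 held 60.7% of the Sall1 sum.

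Pou5f1 was counted in nearly every cell and was lowest in WT cells. Normalized counts ranged over mock cells from 0 through a median of 351 to 1200. In miR-294 cells they ranged from 26.6 through 285 to 818. In let-7 cells they ranged from 0 through 213 to 655. In WT cells they ranged from 48.8 through 126 to 331. The means were 356 ± 236 in mock, 341 ± 184 in miR-294, 236 ± 149 in let-7 and 141 ± 85 in WT cells. Of 60 mock cells, 32 lay above the highest WT cell, and of 57 miR-294 cells 26 did. No let-7 cell lay above the highest mock cell, and 36 of 44 lay below the mock median. The log2 ratio was -0.59 for let-7 over mock (1.51-fold lower), -0.06 for miR-294 over mock and 1.34 for mock over WT (2.52-fold higher).

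Sox2 had the lowest counts of the 4 genes and a wide spread. Normalized counts ranged over mock cells from 0 through a median of 51.7 to 293.6. In miR-294 cells they ranged from 0 through 53.6 to 177. In WT cells they ranged from 3.53 through 33 to 148. In let-7 cells they ranged from 0 through 16.8 to 270. Of the 44 let-7 cells, 36 lay below the mock median and 25 below the first quartile of mock cells (22). The means were 66.7 ± 63.2 in mock, 57.5 ± 38.5 in miR-294, 46.7 ± 45.3 in WT and 36.7 ± 53.5 in let-7 cells. The log2 ratio of Sox2, let-7 over mock, was -0.86 (1.82-fold lower) and lay just short of 2-fold. It was -1.62 with medians in place of means, and -1.09 without the let-7 cell with the highest Sox2 level (270).

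Between genes, levels were compared per transcript length with the deposited FPKM (fragments scaled by transcript length and library size). In mock cells the mean FPKM was 280 ± 122 for Sall4, 192 ± 121 for Pou5f1, 31.5 ± 30.3 for Sall1 and 19.2 ± 18.2 for Sox2. The spreads of Sall4 and Pou5f1 overlap, as do those of Sall1 and Sox2, whereas the first pair stands well above the second. In WT cells the order was Sall4 (319 ± 132), Pou5f1 (85.2 ± 51.6), Sall1 (16.3 ± 20.2) and Sox2 (15.0 ± 14.4). In miR-294 cells it was Sall4 (333 ± 136), Pou5f1 (208 ± 106), Sall1 (26.4 ± 25.7) and Sox2 (18.8 ± 12.9). In let-7 cells Pou5f1 came first (119 ± 71.4), before Sall4 (48 ± 49.2), Sall1 (11.2 ± 18.8) and Sox2 (9.61 ± 14). Within cells, Sall4 had a higher FPKM than Pou5f1 in 15 of 15 WT, 47 of 57 miR-294 and 43 of 60 mock cells, but in 9 of 44 let-7 cells. All 4 genes were counted together in 56 of 60 mock (93.3%, 83.8 to 98.1%), 55 of 57 miR-294 (96.5%, 87.9 to 99.6%), 11 of 15 WT (73.3%, 44.9 to 92.2%) and 26 of 44 let-7 cells (59.1%, 43.2 to 73.7%).

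Set against all genes, 2 of the 4, Sall4 and Sall1, were lower past 2-fold in let-7 than in mock cells, where 9.3% of the 11219 genes were lower past 2-fold and 18.6% higher. None of the 4 was higher past 2-fold. The median log2 ratio of the 4 genes was -1.12, against 0.18 over all genes. Relative to that median, the log2 ratio was -2.64 for Sall4, -1.56 for Sall1, -1.04 for Sox2 and -0.77 for Pou5f1. Among the 5396 genes of the stricter set, of which 5.95% were lower past 2-fold, Sall4 had the 24th lowest ratio. At 1.5-fold, all 4 genes were lower, where 17.4% of the 11219 genes were. Pou5f1 passed only narrowly (-0.59), and without 1 mock cell it stood at -0.54, short of 1.5-fold. As these genes were known from earlier results on the same cells when they were chosen, their place among all genes is a description.

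No member passed 2-fold between miR-294 and mock cells, where 20.6% of all genes were lower and 5.81% higher past it. The log2 ratio was 0.11 for Sall4, -0.06 for Pou5f1, -0.21 for Sox2 and -0.48 for Sall1, with a median of -0.28 over all genes. The sign depended on the scaling for 2 of them: with summed counts as CPM, the ratio was 0.13 for Pou5f1 and 0.26 for Sox2. It was 0.32 for Sall4 and -0.22 for Sall1 on that scale.

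Between mock Dgcr8-/- and WT cells, Pou5f1 (log2 ratio 1.34) and Sall1 (1.19) were higher past 2-fold in mock cells, as were 32.8% of all genes, against 9.49% that were lower, and the count of 2 of 4 is read against that background. The ratio of Sox2 was 0.52 and that of Sall4 0.03, with a median of 0.33 over all genes. The call of Sall1 was lost with scaling to the total count (0.94), TMM factors (0.97), summed counts (0.77) and FPKM (0.95), and its ratio was 2.12 with medians, whereas Pou5f1 stayed past 2-fold in each. Sall4 was -0.22 with summed counts, so no direction is given for it.

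Let-7 and miR-294 cells were also set against the same 15 WT cells, which they share with the comparison above. Sall4 was lower in let-7 than in WT cells with a log2 ratio of -2.44, among 10.7% of all genes lower and 38.6% higher past 2-fold, and it was the only member past 2-fold there. The other ratios were 0.74 for Pou5f1, -0.35 for Sox2 and -0.19 for Sall1, against a median of 0.47 over all genes. That of Sall1 has no clear direction, since it lay between -0.54 and 0.08 when each cell was left out in turn. With medians in place of means it was -0.84, and that of Sox2 was -0.97. In miR-294 against WT cells Pou5f1 alone passed 2-fold, at 1.27, among 24.9% of all genes higher and 13.9% lower past 2-fold. Sall1 stood at 0.71 (1.46 with medians), Sox2 at 0.30 and Sall4 at 0.14, against a median of 0.04.

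**Figure D2:**
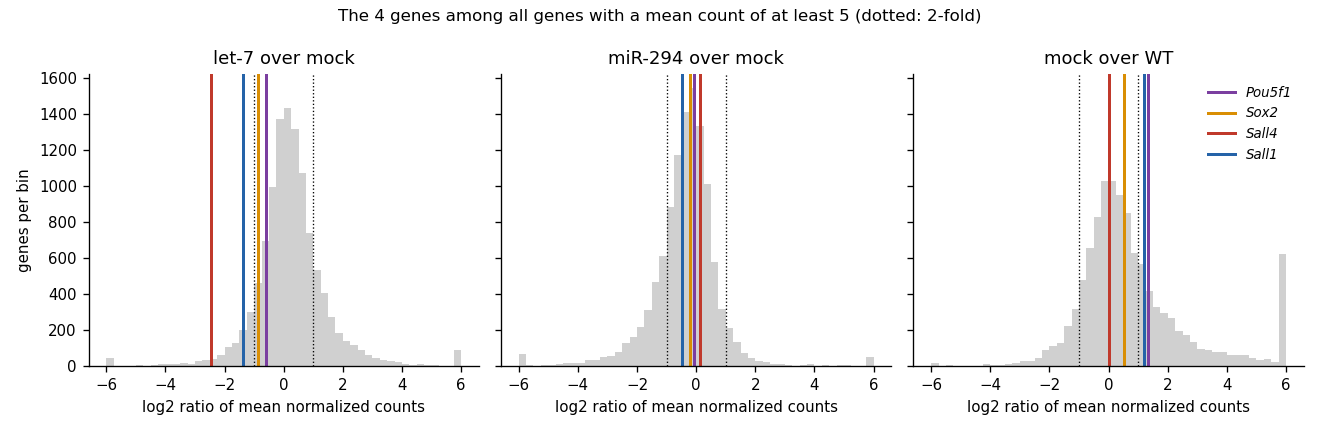
Grey bars count the 11219 genes by their log2 ratio of mean normalized counts (x axis, bins of 0.25, with ratios past 6 in the outermost bins), coloured lines mark the 4 genes and dotted lines 2-fold. After let-7, Sall4 (-2.46) and Sall1 (-1.38) lie left of the 2-fold line, and no gene of the 4 lies past it for miR-294 over mock.

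Sall4 is on a list of 171 let-7 targets that had been defined on arrays of bulk Dgcr8-/- cells, from genes lower after let-7 that hold a seed match, and the other 3 genes are not on it. Of the 168 listed genes that passed the count filter, 79 were lower past 2-fold in let-7 than in mock cells and 1 was higher, with a median log2 ratio of -0.96. The deposited cells had been selected with this list, so it is not independent evidence of its direction. Among its 101 genes in the stricter set, Sall4 ranked the sixth lowest. The 5 with lower ratios were Tarbp2 (-3.87), a partner of Dicer, Nme4 (-3.31), Myo1f (-2.94), Spryd4 (-2.86) and Dna2 (-2.66), a nuclease and helicase of DNA replication. Each of them had a mean normalized count of at most 122 in mock cells, against 1114 for Sall4. Across the 44 let-7 cells, Spearman's rho of Sall4 with the summed level of the other 167 listed genes was -0.09. In miR-294 cells it was 0.29, in mock cells 0.06 and in WT cells -0.21.

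**Figure D3:**
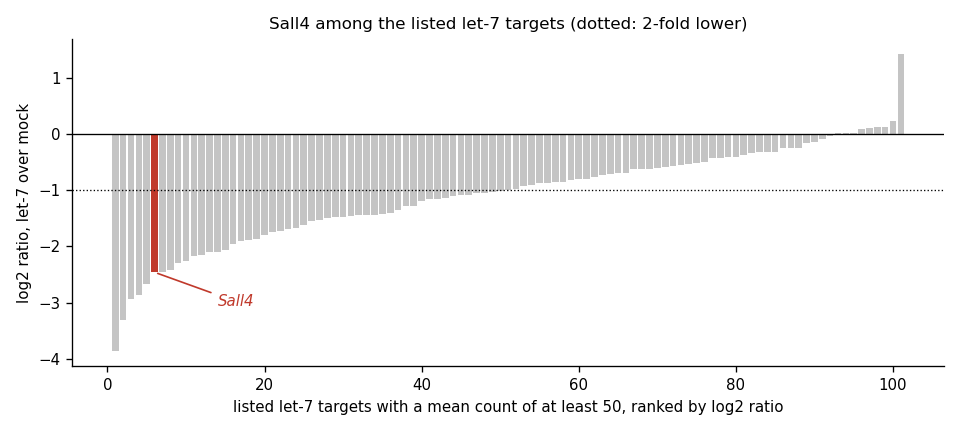
Bars show the log2 ratio, let-7 over mock, of the 101 listed let-7 targets at 50 counts or more, in order of the ratio, with Sall4 in red at -2.46 and a dotted line at 2-fold lower. Sall4 stands at the sixth place from the left, after 5 genes of lower counts.

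The spread between cells differed among the 4 genes. In mock cells the coefficient of variation (SD over mean) was 0.473 for Sall4, 0.662 for Pou5f1, 0.947 for Sox2 and 1.09 for Sall1, with a median of 1.2 over the 5396 genes of the stricter set. Sall4 was thus among the least variable genes by this measure, with 3.22% of them below it. The genes were not matched for level, and the part of level in this rank was not tested. In miR-294 cells every member had a lower value than in mock cells, namely 0.407, 0.540, 0.670 and 1.01, and the median of all genes was also lower, at 1.05. In let-7 cells the value of Sall4 was 1.14, that of Sox2 1.46 and that of Sall1 1.84, each above its mock value, while that of Pou5f1 was 0.630. For Sall4 the SD itself was lower in let-7 than in mock cells (230 against 527), as was the mean (202 against 1114). The median of all genes in let-7 cells was 1.26. WT cells had 0.443 for Sall4, 0.602 for Pou5f1, 0.969 for Sox2 and 1.25 for Sall1, over 15 cells and with a median of 1.16.

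Repeat runs of the same library show the spread that sequencing adds. Over cells with 2 runs and at least 10 counts in each, the SD of the log2 ratio of the runs was 0.13 for Sall4 (46 cells), 0.20 for Pou5f1 (47 cells), 0.24 for Sall1 (39 cells) and 0.30 for Sox2 (37 cells). The SD of log2 levels over mock cells with at least 10 counts was 0.73, 1.07, 1.70 and 1.13 in the same order, each over 3 times as large. Runs share the amplified cDNA of a cell, so losses at capture and amplification are not part of this comparison. No gene was counted in only 1 of the runs, other than Sox2 in 2 of 48 cells.

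Pou5f1 had no count in 2 cells, a mock cell and a let-7 cell. The mock cell had 1594550 counts in total and no Sox2 count either, but normalized counts of 1144 for Sall4 and 1414 for Sall1, the highest Sall1 level of all cells. The let-7 cell had 1025623 counts in total, no Sall4 count, a Sox2 level of 200 and a Sall1 level of 433. These were also the cells with the highest summed level of 7 trophectoderm markers (Cdx2, Eomes, Hand1, Elf5, Gata3, Krt8 and Krt18) in their condition, at 13269 in the mock cell and 3718 in the let-7 cell, against medians of 159 and 236. The sum came mostly from the simple-epithelium keratins Krt18 (7636 and 1908) and Krt8 (5630 and 1803). Grhl2, an epithelial transcription factor from the list of differentiation genes, was at 2056 and 1209 in the same cells. Cdx2, a defining trophectoderm factor, had no count in any mock cell, and Hand1 none in any let-7 cell, so the cells are not named after that lineage. The mock cell also had the lowest sum of 7 ESC markers of the 60 (1785, against a median of 6517), whereas in the let-7 cell that sum was 2395 against a median of 4696. The summed level of the naive pluripotency factors, a list described below, was 8029 in the let-7 cell and 3125 in the mock cell. The 2 sums of the let-7 cell thus give no single reading of its state.

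**Figure D4:**
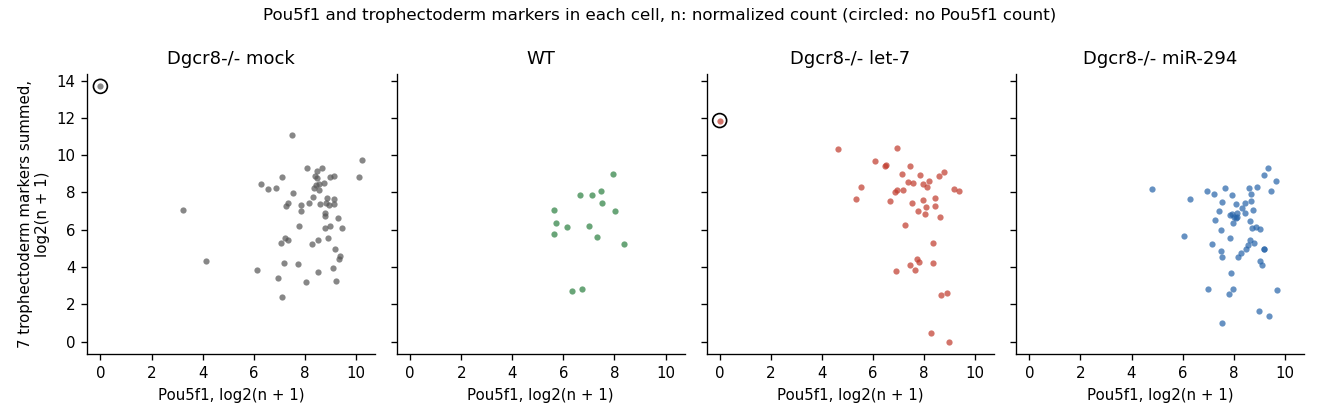
Each point is a cell, with log2(normalized count + 1) of Pou5f1 on the x axis and of the 7 summed trophectoderm markers on the y axis, and circles mark cells without a Pou5f1 count. The circled mock cell (marker sum 13269) and the circled let-7 cell (3718) are the highest of their conditions.

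Over all cells of a condition, Spearman's rho of Pou5f1 with the trophectoderm sum was 0.04 in mock, 0.22 in WT, -0.02 in miR-294 and -0.43 in let-7 cells. The mock cells with the next lowest Pou5f1 levels, 8.32 and 16.4, had sums of 135 and 18.9, below the mock median. The next highest mock sum, 2147, was met in a cell with Pou5f1 at 179. The let-7 cell with the next lowest Pou5f1 level, 24.0, had a sum of 1285. The median sums were 159 in mock, 81.1 in WT, 236 in let-7 and 87.6 in miR-294 cells. The median sum was highest in let-7 cells, but among the 5 markers past the count filter only Gata3 had its highest mean there (36.9). The means of Krt8 (252 ± 739) and Krt18 (152 ± 989) were highest in mock cells and those of Eomes (88.8) and Elf5 (10.7) in WT cells. The mock means of Krt8 and Krt18 lean on the mock cell without a Pou5f1 count, at 5630 and 7636. No order of mock and let-7 cells is therefore read from these keratin means. The part of these markers in the levels of the 4 genes was not tested. ESC markers (Zfp42, Esrrb, Dppa5a, Tdgf1, Utf1, Dppa3 and Fbxo15) were counted in all conditions, with median sums of 6517, 5633, 4696 and 6779 in the same order and a range from 835 to 13451 over all cells. Early differentiation genes (8 listed) had median sums of 0.721 to 5.42. Of the 6 primitive endoderm markers Gata6 and Sox17 had no count in any cell, and the summed level was 0 in 59 of 60 mock, 15 of 15 WT, 34 of 44 let-7 and 49 of 57 miR-294 cells. Of 7 fibroblast markers Col1a2, Col3a1, Postn and Lum had no count in any cell, and the highest sum, 355, was met in a let-7 cell.

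Levels of the 4 genes were only weakly related to each other from cell to cell, in each of the conditions. Over the 60 mock cells, Spearman's rho of normalized counts was 0.20 for Sox2 and Sall4, 0.14 for Sall4 and Sall1, 0.09 for Pou5f1 and Sox2, -0.03 for Pou5f1 and Sall1, -0.09 for Sox2 and Sall1 and -0.17 for Pou5f1 and Sall4. Weak correlations in sparse counts are given here as a description, since the cells of a condition share a chip. Between Pou5f1 and the 5395 other genes of the stricter set, the middle 90% of rho values over mock cells lay between -0.30 and 0.34. The values of Pou5f1 with its partners were thus ordinary. The rho of Sox2 and Sall4 was higher than that of 94.3% of the other genes with Sox2 and of 95.2% with Sall4. Pearson's r on log2 values of Pou5f1 and Sox2 was 0.38, and 0.20 without the mock cell in which neither was counted.

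Pou5f1 and Sall4 had the highest rho of any pair in miR-294 cells, 0.35 over 57 cells, and in WT cells, 0.41 over 15 cells. In mock cells the value was -0.17 and in let-7 cells -0.06. In miR-294 cells, 99.4% of the other genes had a lower rho with Pou5f1 than Sall4 did. In WT cells the value was 0.20 when all 16 titles were used. Pou5f1 and Sox2 had a rho of -0.28 in miR-294 cells, where Sox2 went with the number of genes counted (0.41) and with the total count (0.35) and Pou5f1 did not (-0.24 and -0.04). After the rank of the number of genes counted was regressed out, that value was -0.20. In let-7 cells the highest value was that of Sox2 and Sall1, 0.32 over 44 cells. It was 0.33 after the same adjustment, with a rho to the number of genes counted of -0.29 for Sox2 and 0.01 for Sall1. Of the other genes, 98.3% had a lower rho with Sox2 and 97.6% a lower rho with Sall1 in these cells. Sall4 and Sall1, the related pair, lay between -0.05 and 0.15 in all 4 conditions.

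**Figure D5:**
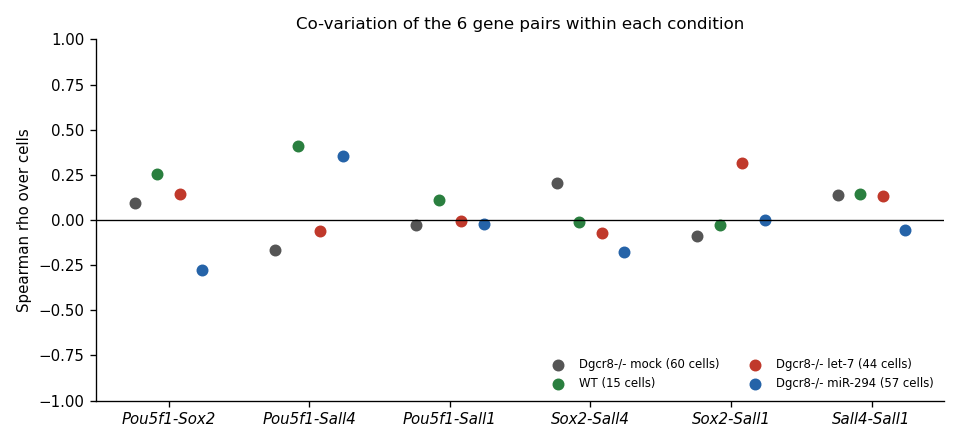
Points give Spearman's rho over the cells of a condition for each of the 6 pairs of genes, coloured by condition. All lie between -0.28 and 0.41, and the pair of Pou5f1 and Sall4 is at 0.41 in WT and 0.35 in miR-294 cells but below 0 in mock and let-7 cells.

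Over mock cells, the genes with the pattern most like Pou5f1 were Gpx1 (rho 0.69), an antioxidant enzyme, Pkm (0.67), a glycolytic enzyme, Mif (0.62), Rps4l (0.61) and Gm13841 (0.60). In let-7 cells their rho with Pou5f1 was between 0.01 and 0.18, in miR-294 cells between -0.06 and 0.36 and in WT cells between -0.41 and 0.35. For Sox2 they were Sumo2 (0.50), Ndufb4 (0.48), Mcm6 (0.44), a subunit of the replicative helicase, Pygb (0.41) and G3bp2 (0.40). For Sall4 they were Serbp1 (0.46), Med17 (0.39), a Mediator subunit, Sf3a1 (0.39), a splicing factor, Yes1 (0.38) and Gm28661 (0.38). For Sall1 they were Abtb1 (0.45), Suclg2 (0.44), Wsb2 (0.43), Mia3 (0.41) and Cdc7 (0.41), a kinase of replication origins. These are the highest of 5395 values. Of the 5 genes named for Sox2, the rho lay between -0.12 and 0.40 in let-7 cells, between -0.20 and 0.07 in miR-294 cells and between -0.60 and 0.15 in WT cells. Those named for Sall4 lay between -0.16 and 0.13 in let-7 cells and between -0.16 and 0.25 in miR-294 cells. The summed level of 12 naive pluripotency factors had a rho of 0.25 with Pou5f1, 0.29 with Sox2, 0.29 with Sall4 and -0.07 with Sall1 over mock cells, and 0.57 with Sox2 over let-7 cells.

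The naive pluripotency factors (13 listed, 12 past the count filter) had a median log2 ratio of -0.37 for let-7 over mock, against 0.18 over all genes. Of these, 3 were lower and 1 was higher past 2-fold, where 9.3% of all genes were lower and 18.6% higher: the nuclear receptor Nr5a2 (-2.97, from a mean of 16.2 ± 30.7 to 2.07 ± 5.56), Prdm14 (-1.54, and from -2.52 to -1.22 with each cell left out in turn) and Nanog (-1.5, from 655 ± 420 to 231 ± 336) were lower and Klf5 (1.77, from 35.9 ± 50.3 to 122 ± 133) was higher. Nanog falls outside the rule by which list genes were named and was named after its value was seen. After miR-294, Prdm14 (-1.27) and Stat3 (-1.10), the mediator of LIF signalling, were lower past 2-fold, among 20.6% of all genes, and the median was 0.27. Without 1 cell the ratio of Prdm14 was -0.95 and that of Stat3 -0.92, both short of 2-fold. Between mock and WT cells, Prdm14 (2.50) and Klf2 (1.44) were higher in mock cells past 2-fold, among 32.8% of all genes.

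Genes with a known Oct4 and Sox2 element (9 listed and measured) had a median of -0.76 for let-7 over mock, with 4 lower and 1 higher past 2-fold, against the same 9.3% and 18.6% of all genes. Lefty1, a Nodal antagonist, was lower with -2.77 (-3.75 without 1 let-7 cell), from 229 ± 527 to 33.6 ± 115, and Fgf4, a growth factor secreted by ESCs, with -1.96, from 209 ± 217 to 53.6 ± 102. Spp1, which encodes osteopontin, was higher with 1.31, from 2625 ± 1678 to 6525 ± 3920. The means of Pou5f1 and Sox2 were lower in let-7 cells, short of 2-fold, and their relation to Spp1 from cell to cell was not tested. After miR-294, Lefty1 was lower (-3.29) and Utf1, a chromatin factor of ESCs, was higher (1.31), with a median of -0.25. Of all genes, 20.6% were lower and 5.81% higher past 2-fold there. In mock against WT cells 3 of the 9 genes were higher past 2-fold, a share near the 32.8% of all genes, led by Lefty1 (1.53, or 3.5 without 1 WT cell) and Utf1 (1.5), with a median of 0.71. Nanog and Zfp42 are on both this list and that of the naive factors.

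The ratios of the other SALL genes, let-7 over mock, rested on single cells. Sall3 had a log2 ratio of 0.78 (mean 133 ± 219 in mock and 227 ± 997 in let-7 cells), but 1 let-7 cell at 6608 held 66% of the let-7 sum, and without it the mean was 79.1 ± 158 over 43 cells and the ratio -0.75. Sall2 had a ratio of -0.05, which lay between -1.18 and 0.66 when each cell was left out in turn. Sall2 was barely counted, at means of 11.2 ± 43.2 in mock and 0.147 ± 0.833 in miR-294 cells (log2 ratio -6.26). Among other POU and SOX genes 5 of 12 passed the count filter, and of these Pou2f1, which encodes the widely expressed Oct1, was lower past 2-fold after let-7 (-1.71, from 123 ± 145 to 37.8 ± 92.6). Of all genes, 9.3% were lower past 2-fold after let-7. After miR-294 it was Sox12 that was lower (-1.47), as were 20.6% of all genes. In mock against WT cells Sox13 was higher (1.28, or 3.54 without 1 WT cell), as were 32.8% of all genes.

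None of the 13 measured genes of the NuRD complex, the partner of the SALL proteins, passed 2-fold after let-7, and their median was -0.04. Of all genes, 9.3% were lower and 18.6% higher past 2-fold there. After miR-294, Mbd2 (-1.98), a methyl-CpG binding subunit with a mean of 9.19 in mock cells, and Mta1 (-1.01, or -0.78 without 1 cell) were lower past 2-fold, 2 of 13 where 20.6% of all genes were lower, with a median of -0.17. Mbd2 (4.18) and Mta1 (1.54) were also among 3 of the 13 genes higher in mock than in WT cells, where 32.8% of all genes were higher. Cdk2ap1 (-1.24, or -0.98 without 1 cell) was lower there, as were 9.49% of all genes. Without 1 WT cell the ratio of Mbd2 was 5.59 and that of Mta1 2.12.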

How the data were processed

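RNA of single cells had been converted to libraries on Fluidigm C1 chips with a Nextera XT kit, which does not mark strand. The authors assigned reads to Gencode M4 genes with RSEM 1.2.19 and deposited for each run the expected count of each gene, which is not normalized, and the FPKM, normalized by length and depth. They had also removed cells of low depth or diversity and cells without lower targets. The runs of a cell were added up and rounded to whole counts, which were scaled by DESeq size factors over the 864 genes with a count in all cells. FPKM was averaged over runs. Genes at a mean of 5 counts or more per cell were kept, with a stricter set at 50 or more, and 2-fold was the threshold for a ratio of means. Gene names came from a later Gencode release on GRCm38 (41674 of 42493 identifiers).

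As each condition was 1 sample, no test was run, and the cell-level differential expression model of the study was not followed. From each list the genes named were those 2 with the largest rise and 2 with the largest fall past 2-fold. For each member the 5 genes of highest rho in mock cells were named, and the listed let-7 targets below Sall4. The members and lists were chosen with earlier results of these data known, and the merging and leaving out of titles was decided after the data were seen. Intervals are at 95%. Thinning drew counts without replacement to 513521. The steps were tested on simulated data. Python 3.11.15, numpy 2.4.6, scipy 1.17.1, pandas 2.3.3, matplotlib 3.10.9, R 4.3.3 and edgeR 4.0.16 (TMM factors only) were used.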

Additional observations from a re-analysis of the deposited data

How the results depend on the processing

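The numbers of members past 2-fold were recomputed with total-count scaling, TMM factors, summed counts, medians, FPKM, first runs only, other filters, without the MIR_294 cells, with 1 cell of each alike pair left out and, chosen after the data were seen, with all 182 titles and with each cell left out in turn. At 1.5-fold, 4 members were lower in let-7 than in mock cells, where 17.4% of all genes were. At that threshold 1 was higher in let-7 than in WT cells (48.8% of all genes). In miR-294 over WT cells 2 were higher (33.6% of all genes). With total-count scaling, TMM factors, summed counts or FPKM, 1 member was higher in mock than in WT cells, where 28.1 to 29.2% of all genes were. With medians, 2 were higher in miR-294 than in WT cells, and the share of all genes was not computed for medians. The other counts were within 1.5 times of those reported. The log2 ratios themselves were less stable: 99 of the recomputed values moved by more than the counting error and 81 did not. With medians 19 moved and 1 did not. The ratio of Sall4, let-7 over mock, ranged from -2.68 (medians) to -2.40 (summed counts) and that of Sall1 from -2.96 (medians) to -1.33 (all titles). That of Pou5f1 ranged from -0.72 to -0.59. All rho values but 1 of 150 recomputed (Pou5f1 and Sox2 in mock cells by Pearson's r) stayed within the interval that the number of cells allows. That interval is the error of a new set of cells, and mostly the same cells were used again, so it is a loose limit. In WT cells the value of Pou5f1 and Sall4 ranged from 0.20 to 0.53 and that of Sox2 and Sall4 from -0.02 to 0.19. That of Sox2 and Sall1 in miR-294 cells ranged from -0.05 to 0.25. No paired analysis was possible because no result comes from a test and a condition is 1 sample. At these depths a member with no count in a cell may still be expressed there, and the 15 WT cells limit every comparison with them.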
